A study of Coccomyxa subellipsoidea C-169 with 6 samples.

Results

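The 38 genes described here had their highest transcript level in a single culture, the first replicate of the CO2-supplemented group of Coccomyxa subellipsoidea C-169. They were chosen from the measured levels of all 9409 genes in the deposited table. A gene was taken if it had a mean of at least 2 CPM over the AG libraries, at least 20 CPM in CG 1, and a CG 1 level at least 2 times that of the highest of the other 5 libraries. CPM is the count of a gene for every 1000000 counts of its library. Since the choice used all 6 libraries, the height of CG 1 in these genes is a description and was not tested.

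C-169 is a unicellular green alga. Its cells were grown in flasks of Bold's Basal Medium under continuous light and harvested after 4 days, 3 cultures with 0.04% CO2 (AG) and 3 with 2% CO2 (CG), all of 1 strain. One digital gene expression library was sequenced from each culture. Library sums were 2674507 counts in CG 1 and between 2724210 and 4969639 in the other libraries. CG 1 was thus the shallowest library, and the part of depth in the choice of these genes was not tested. The chosen genes had between 56 and 4038.5 counts in it.

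Algae take up CO2 for photosynthesis, and in air the supply of inorganic carbon can limit their growth. Genes of carbon uptake and of carbon and nitrogen assimilation are known to respond to that supply. Most of the chosen genes carry an identifier without a name in the sources used here. The exception was gene 47584, described by the study as an NAD(P)-binding Rossmann-fold superfamily protein and listed under oxidation-reduction processes. The Rossmann fold is the domain with which many dehydrogenases and reductases hold their nicotinamide cofactor. The descriptions at hand covered 219 genes, so the functions of the other 37 chosen genes were not analysed here.

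Both CPM minimums were met by 6597 genes. In 357 of these the level in CG 1 was at least 2 times that in both CG 2 and CG 3. For 319 of the 357, CG 1 did not reach 2 times the highest AG library, which left the 38. The median ratio of CG 1 to the highest other library was 0.807 over the 6597 genes, and CG 1 was the highest of the 6 libraries in 1530 of them. In the chosen genes the ratio was between 2.01 and 3.66, with a median of 2.21. The highest other library was CG 2 in 15 genes, CG 3 in 15 and an AG library in 8.

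**Figure D1:**
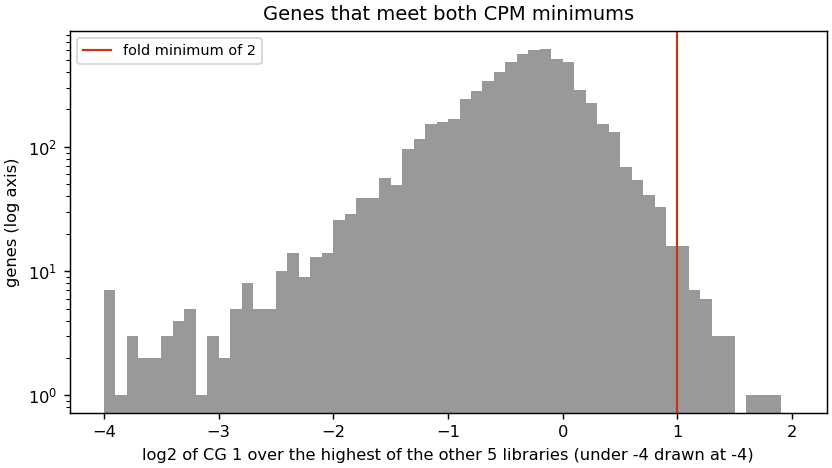
Number of genes (vertical log axis) by the log2 ratio of CG 1 to the highest of the other 5 libraries, for the 6597 genes that met both minimums, with the lowest ratios gathered in the leftmost bar. The red line marks the fold of 2, right of which lie the 38 genes at the thin end of the distribution.

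The fold of 2 fell in a dense run of values. Just inside it were 31923, 65086 and 15759, with ratios of 2.0096, 2.0129 and 2.0206. Just outside were 37154, 21985 and 60316, with ratios of 1.998, 1.997 and 1.985. In 12 of the 38 genes the lower bound of the exact 95% interval of the ratio was itself at or above 2. These intervals cover only the counting error of reads, which carried no molecular identifiers. They do not cover variation between cultures or libraries, and they do not allow for the choice of genes by this ratio.

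Together the 38 genes took 10441 CPM in CG 1, against 3827 and 4056 CPM in CG 2 and CG 3 and 1837 to 1957 CPM in the AG libraries. CPM is a share of a library, so more transcripts of a gene and fewer of the others cannot be told apart, nor can more RNA per cell and more cells of a state. CG 1 was moreover 1 culture and 1 library, so that a difference in the culture and one in its library cannot be told apart either. The highest AG library exceeded the lowest by a median of 1.16 times in these genes, and by at most 1.89 times. The AG libraries lay within 1.25 times of each other in 26 of the 38. CG 2 and CG 3 lay within 1.25 times of each other in 30 of the 38, with CG 2 above CG 3 in 19 and below it in 19. The share of all genes within this bound was not counted.

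**Figure D2:**
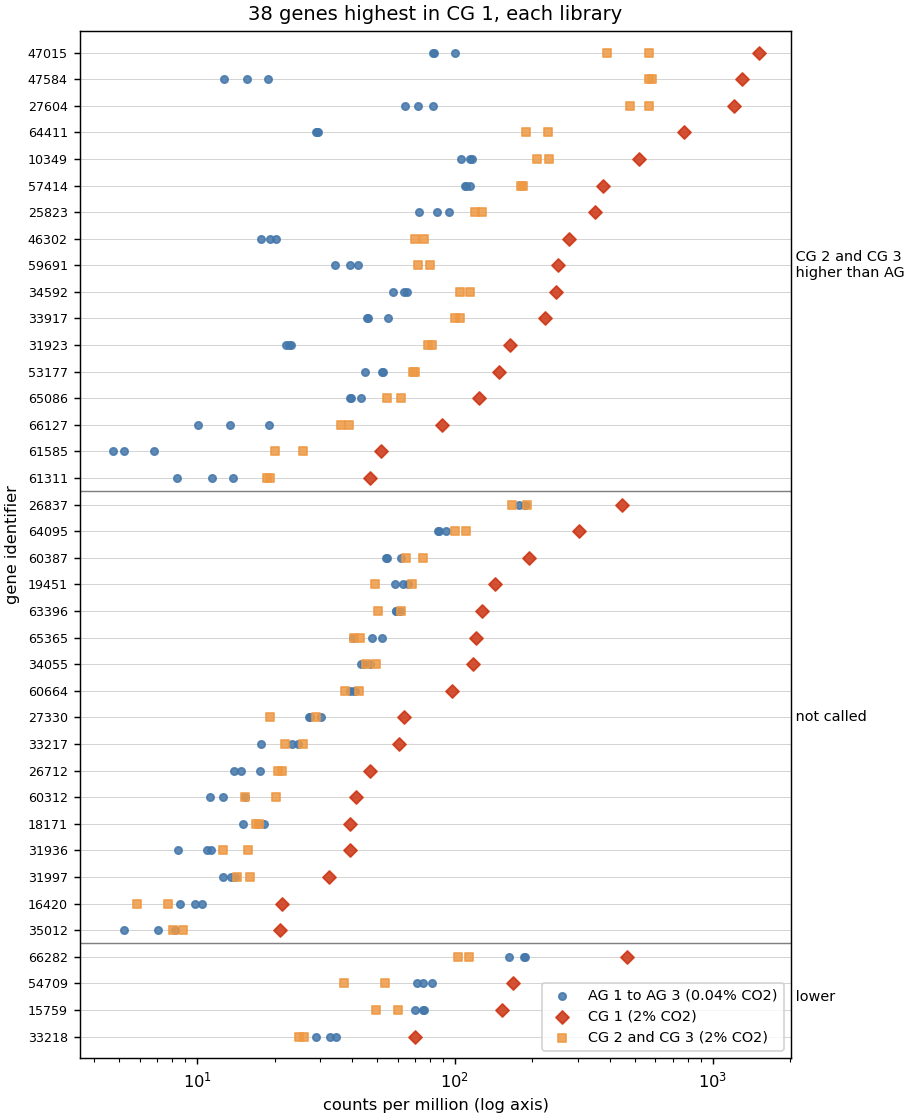
CPM on a log axis of each of the 38 genes (rows, by identifier) in AG 1 to AG 3 (blue circles), CG 1 (red diamonds) and CG 2 and CG 3 (orange squares), divided by the call of CG 2 and CG 3 against AG. CG 1 lies right of the other 5 libraries in every row by the choice of genes, while CG 2 and CG 3 lie right of AG in the 17 genes of the upper block and left of AG in the 4 genes of the lower block.

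The genes differed in how CG 2 and CG 3 related to AG, a direction that the choice did not set. It only capped these 5 libraries relative to CG 1 and kept the AG mean above its minimum. For this comparison edgeR's quasi-likelihood test was fitted to all genes in the 5 libraries without CG 1, and a gene was called at a Benjamini-Hochberg adjusted p under 0.05. Of the 38 genes, 17 (44.7%) were higher in CG 2 and CG 3, 4 (10.5%) were lower and 17 were not called. Of all 8720 genes tested, 34.0% were higher and 34.2% lower. The libraries of the test also entered the choice of genes, so nothing is read from the distance between these shares. By their ranges alone, CG 2 and CG 3 both lay above all AG libraries in 22 genes and below them in 5, against 43.6% and 35.4% of all genes tested. Values after ± below are approximate standard errors of a log2 change of CG 2 and CG 3 over AG. Each was calculated back from the change and the F statistic of the edgeR test. These values come from the fit without CG 1 and leave out its distance from CG 2 and CG 3.

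In the 17 genes that were higher, the choice of genes put CG 1 beyond CG 2 and CG 3, on the side away from AG. The shares over all genes given below describe CG 1 as a library and are not set against the 17. Their levels in CG 2 and CG 3 were 1.39 to 36.6 times the AG mean, with a median of 2.10, and those in CG 1 were 2.98 to 82.9 times the AG mean, with a median of 6.29. Among all 2963 genes higher in CG 2 and CG 3, CG 1 was above both in 540 (18.2%) and below both, on the AG side, in 2137 (72.1%). Among the 2983 genes lower in CG 2 and CG 3, CG 1 was on the AG side of both in 2016 (67.6%). These genes were called by the distance of CG 2 and CG 3 from AG, which by itself tends to leave CG 1 nearer to AG. No weaker response of CG 1 is therefore read from these shares.

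**Figure D3:**
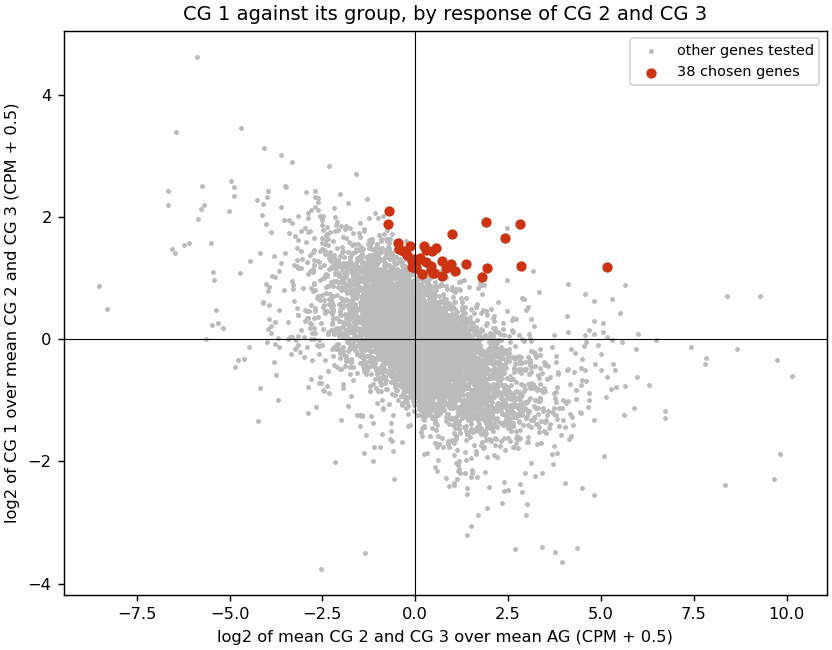
Log2 ratio of CG 1 to the mean of CG 2 and CG 3 (vertical) against the log2 ratio of the mean of CG 2 and CG 3 to the AG mean (horizontal), each with 0.5 CPM added, for the 8720 genes tested. Most other genes (grey) that were higher in CG 2 and CG 3 lie below 0 and most that were lower lie above it. The mean of CG 2 and CG 3 enters both axes with opposite sign, which by itself tilts the points this way. The 38 chosen genes (red) lie above 1 by their choice, from moderate falls on the left to large rises on the right.

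Gene 47584, the Rossmann-fold protein, showed the largest rise. The AG libraries held 15.6, 18.8 and 12.7 CPM of its reads, CG 2 held 584 CPM, CG 3 held 565 CPM and CG 1 held 1303 CPM. AG and CG did not overlap, and CG 2 and CG 3 were nearly equal. The rise in CG 2 and CG 3 was 5.11 ± 0.12 on the log2 scale, with an adjusted p of 6.03e-13 (edgeR).

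Genes 27604, 64411 and 47015 followed, all without a name. For 27604, the AG libraries gave 72.0, 82.5 and 63.9 CPM, CG 2 and CG 3 gave 480.0 and 567 CPM, and CG 1 gave 1208 CPM. Its rise without CG 1 was 2.76 ± 0.11 on the log2 scale (edgeR, adjusted p = 7.42e-11). Per transcript length it was the most abundant of the 38 in CG 1, at 1033 RPKM (reads scaled by transcript length and library size), ahead of 47584 at 733 RPKM.

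For 64411, the AG libraries were almost identical, with 29.5, 29.3 and 29.1 CPM, whereas CG 2 and CG 3 gave 189 and 229 CPM and CG 1 gave 775 CPM. The rise without CG 1 was 2.75 ± 0.11 (edgeR, adjusted p = 9.63e-11). Gene 47015 had the highest CPM of the 38 in CG 1, 1510.0, compared with 388 in CG 2, 569 in CG 3 and 82.8, 100.4 and 82.5 in AG. Its CG 2 and CG 3 values stood farther apart than those of 27604 and 64411, and the rise was 2.35 ± 0.17 (edgeR, adjusted p = 4.97e-06). All of 27604, 64411 and 47015 had fractional counts in some libraries, so that their levels may include reads divided with similar sequences. The study describes counting reads with a unique match to a single gene, so the source of the fractions is not known here.

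Gene 61585 completed the 5 largest rises from a low level, 6.81, 4.70 and 5.23 CPM in AG. It reached 25.7 and 20.05 CPM in CG 2 and CG 3, a rise of 1.92 ± 0.22 (edgeR, adjusted p = 4.47e-06), and 52.0 CPM in CG 1.

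The greatest ratio of CG 1 to the highest other library was that of 46302, 3.66 with an exact 95% interval from 3.19 to 4.21. This gene gave 20.2, 17.8 and 19.1 CPM in AG, 70.1 and 75.6 CPM in CG 2 and CG 3, and 277 CPM in CG 1. Gene 64411 came next, with a ratio of 3.38 and an interval from 3.12 to 3.67. Only 59691 also exceeded 3 among the 38, with a ratio of 3.15 and an interval from 2.74 to 3.62. Its values were 39.1, 42.1 and 34.4 CPM in AG, 72.3 and 80.2 CPM in CG 2 and CG 3, and 252 CPM in CG 1. Both 46302 and 59691 were higher in CG 2 and CG 3, by 1.84 ± 0.12 and 0.90 ± 0.11 on the log2 scale (edgeR, adjusted p = 1.71e-08 and 1.09e-05).

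The rest of the 17 rose by 0.39 to 1.72 on the log2 scale (edgeR). Gene 31923 rose from 22.7, 22.2 and 23.1 CPM in AG to 81.5 and 78.9 CPM in CG 2 and CG 3, with 164 CPM in CG 1. Gene 66127 gave 10.1, 19.1 and 13.5 CPM in AG, 38.9 and 36.4 CPM in CG 2 and CG 3, and 89.4 CPM in CG 1. The AG libraries of 66127 differed more from each other than those of 31923, and neither gene's groups overlapped. Gene 25823 gave 85.2, 95.4 and 72.6 CPM in AG, 119.7 and 128 CPM in CG 2 and CG 3, and 349 CPM in CG 1, a rise without CG 1 of 0.46 ± 0.11 (edgeR, adjusted p = 0.00210). The smallest of the 17 rises was that of 53177, 0.39 ± 0.11 (edgeR, adjusted p = 0.00621). Neither 25823 nor 53177 was called over all 6 libraries, at adjusted p of 0.0543 and 0.0537 (edgeR).

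In 4 genes CG 2 and CG 3 were lower than AG, while CG 1 was above it by the choice of genes. Gene 66282 gave 188, 163 and 185 CPM in AG, only 103 and 114 CPM in CG 2 and CG 3, but 467 CPM in CG 1. CG 1 was here 4.31 times the mean of CG 2 and CG 3, the widest gap within the CG group among the 38 genes. The log2 change of CG 2 and CG 3 was -0.81 ± 0.10 (edgeR, adjusted p = 1.04e-05). Gene 54709 gave 82.0, 71.1 and 75.5 CPM in AG, 53.6 and 37.2 CPM in CG 2 and CG 3, and 169.003 CPM in CG 1, a log2 change of -0.87 ± 0.14 (edgeR, adjusted p = 0.000138). Neither gene was called over all 6 libraries, where the log2 changes were 0.27 and 0.09, with adjusted p of 0.714 and 0.892 (edgeR).

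The falls of 15759 and 33218 were smaller. Over all 6 libraries neither was called, with log2 changes of 0.16 and 0.23 and adjusted p of 0.761 and 0.656 (edgeR). Gene 15759 gave 75.8, 75.4 and 69.9 CPM in AG, 60.0 and 49.3 CPM in CG 2 and CG 3, and 153 CPM in CG 1, a log2 change of -0.53 ± 0.11 (edgeR, adjusted p = 0.000954). Its counts were fractional in all 6 libraries. Gene 33218 gave 29.0, 34.5 and 32.8 CPM in AG, 26.1 and 24.9 CPM in CG 2 and CG 3, and 69.9 CPM in CG 1. Its log2 change of -0.43 ± 0.14 (edgeR, adjusted p = 0.0152) lost the call in DESeq2, at an adjusted p of 0.0891. It also lost it in edgeR without CG 2 or CG 3, at adjusted p of 0.0504 and 0.106, and with library sums as the only scaling, at 0.0552.

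In the 17 genes not called, CG 2 and CG 3 were 0.707 to 1.38 times the AG mean, with a median of 1.06, and CG 1 was 2.14 to 3.83 times the AG mean. Gene 26837 had the highest CPM of them in CG 1, 445, with 188, 186 and 177 CPM in AG, and with CG 2 above these at 191 CPM and CG 3 below them at 166 CPM. Gene 64095 gave 85.7, 92.8 and 86.7 CPM in AG, 110.1 and 100.0 CPM in CG 2 and CG 3, and 304 CPM in CG 1. CG 2 and CG 3 were above the AG range in 64095, but the adjusted p was 0.171 (edgeR). Gene 60387 likewise had CG 2 and CG 3 above AG without a call, with 54.5, 54.1 and 62.0 CPM in AG, 75.3 and 65.0 CPM in CG 2 and CG 3, and 195 CPM in CG 1. Gene 34055 was nearly level in 5 libraries, with 44.4, 47.0 and 43.5 CPM in AG and 49.6 and 45.4 CPM in CG 2 and CG 3, and gave 118 CPM in CG 1. The lowest levels in CG 1 were those of 35012 and 16420, 20.9 and 21.3 CPM, from 56 and 57 counts.

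The study's own contrast, CG against AG over all 6 libraries, gave every one of the 38 genes a positive log2 change, which the choice of genes largely set. In edgeR 15 of them (39.5%) were called higher, against 27.3% of the 8637 genes tested. None (0) of the 38 was called lower, against 25.0%, and nothing is read from either, as the choice used the same contrast. The number higher was 10, 9 and 9 without AG 1, AG 2 and AG 3, and 17 without CG 1, among them all 15 of the 6-library fit.

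Some of the chosen genes lay side by side in the genome, a property that the choice did not use. All 38 were matched by identifier to the gene order of the RefSeq assembly v2.0 of C-169, in which they fell on 16 scaffolds. In 5 cases a chosen gene was followed directly by another, so that 10 of the 38 genes (26.3%) had a chosen gene as neighbour. Of all matched genes, 75 (0.80%) did. The study counted reads of both strands together, so that strand does not separate reads from a stretch that overlapping models share. The models of 31997 and 26712 overlapped, and those of the other pairs did not.

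**Figure D4:**
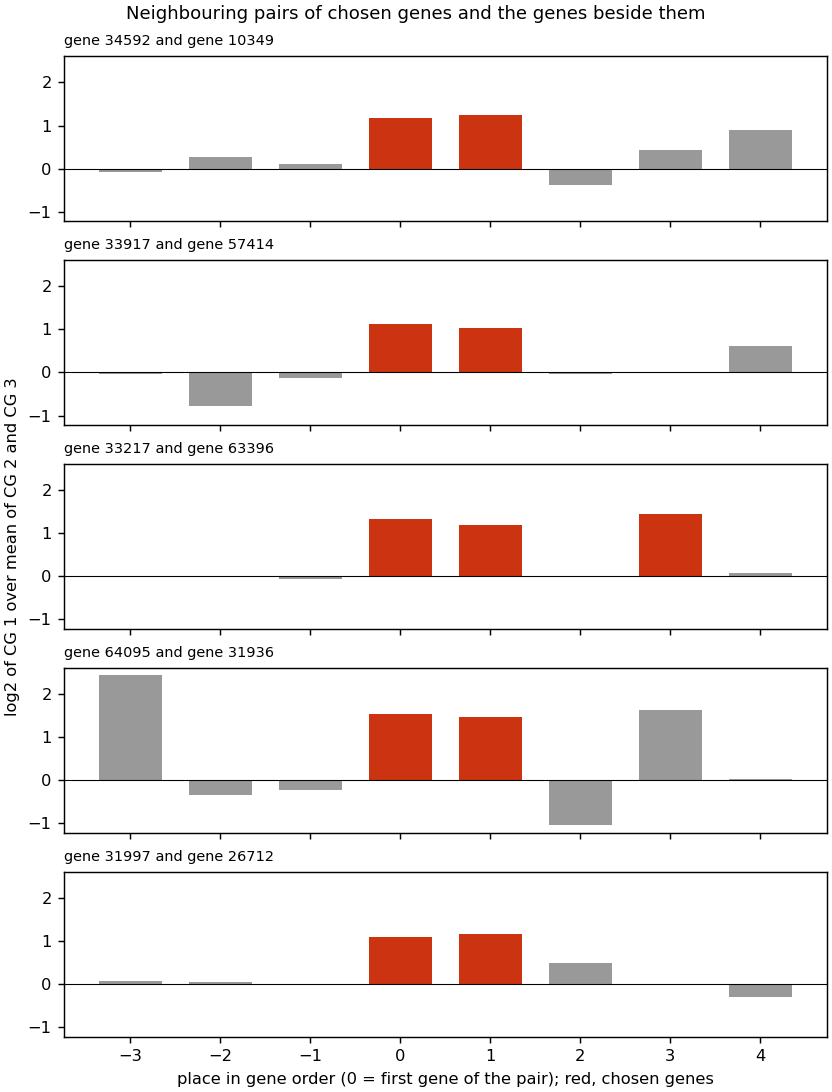
Log2 ratio of CG 1 to the mean of CG 2 and CG 3 (bars) for the 5 neighbouring pairs of chosen genes (red) and the genes beside them (grey), by place in the gene order, with genes that did not reach 5 CPM in any library left out. The chosen genes stand above 1 on the log2 scale and the genes drawn directly beside them below 1, while 31935 and 64096, farther from the pair 64095 and 31936, also stand above 1.

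Gene 34592, with 63.8, 65.1 and 57.3 CPM in AG and 105 and 115 CPM in CG 2 and CG 3, gave 246 CPM in CG 1. Its neighbour 10349, with 115, 117 and 106 CPM in AG and 208 and 233 CPM in CG 2 and CG 3, gave 519.7 CPM in CG 1. The share of 34592 in the sum of both was between 32.2% and 35.8% in the 6 libraries. Both genes were chosen for a high CG 1, which largely sets that they share it, here and in the other pairs. Both were higher in CG 2 and CG 3, by 0.74 ± 0.10 and 0.88 ± 0.09 on the log2 scale (edgeR, adjusted p = 2.03e-05 and 1.19e-06). The gene before them, 26420, was at 71.0 CPM in CG 1 and between 55.9 and 69.0 CPM elsewhere.

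The pair 33917 and 57414 was likewise higher in CG 2 and CG 3, by 0.98 ± 0.10 and 0.62 ± 0.08 (edgeR, adjusted p = 2.04e-06 and 2.18e-05). Gene 33917 gave 46.1, 54.9 and 45.7 CPM in AG, 100.6 and 105 CPM in CG 2 and CG 3, and 224 CPM in CG 1. Gene 57414 gave 114, 110.3 and 109 CPM in AG, 180.2 and 184 CPM in CG 2 and CG 3, and 375 CPM in CG 1. The share of 33917 in the sum was 28.7% to 33.2% in AG and 35.8% to 37.4% in CG. A further chosen gene, 18171, followed after 3 others, with 39.3 CPM in CG 1 and 15.1 to 18.2 CPM in the other libraries.

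A run of 3 chosen genes, 33217, 63396 and 33218, was interrupted only by 63397, which stayed under 1 CPM in every library. Gene 33217 gave 23.5, 24.6 and 17.7 CPM in AG, 25.7 and 21.9 CPM in CG 2 and CG 3, and 60.6 CPM in CG 1. Gene 63396 gave 59.0, 61.2 and 59.4 CPM in AG, 62.0 and 50.3 CPM in CG 2 and CG 3, and 128 CPM in CG 1. CG 2 and CG 3 overlapped with AG in both, whereas 33218 was one of the 4 genes lower in CG 2 and CG 3.

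Neither 64095 with 31936 nor 31997 with 26712 was called in CG 2 and CG 3 against AG. Gene 31936 gave 11.3, 11.0 and 8.45 CPM in AG, 15.8 and 12.6 CPM in CG 2 and CG 3, and 39.3 CPM in CG 1, and 64095 held 87.5% to 91.1% of the sum of that pair. Gene 31997 gave 12.6, 13.6 and 14.1 CPM in AG, 14.3 and 16.04 CPM in CG 2 and CG 3, and 32.5 CPM in CG 1. Its neighbour 26712 gave 14.9, 17.5 and 13.9 CPM in AG, 21.3 and 20.6 CPM in CG 2 and CG 3, and 46.7 CPM in CG 1. The share of 31997 ranged more widely, from 40.2% to 50.4%, and rests on 87 counts in CG 1. Not far from the pair 64095 and 31936 lay 31935, which is not among the 38, with 366 to 449.7 CPM in AG, 339 CPM in CG 1 and 53.2 and 71.9 CPM in CG 2 and CG 3.

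The transcripts of the 38 genes, by the length that count and RPKM imply, were 502 to 3008 bases long, with a median of 1116 against 1413 for the 6597 genes that met both minimums. Of the 38, 47.4% were shorter than 1000 bases, against 27.0% of the 6597. Shorter transcripts give fewer reads at the same abundance. Fractional counts were found in 6 of the 38 (15.8%) and in 12.8% of all genes, a count being taken as whole within 0.01.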

How the data were processed

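Short single-end reads from 6 poly(A) libraries, 3 per CO2 level, were mapped by the authors with Bowtie (version not given in the sources used here), allowing 1 mismatch, to the C-169 transcripts of Phytozome. The deposited counts were treated like estimated counts, because part of them are fractional, and the authors normalized them to RPKM. The deposited group means, fold changes and FDR values were not used. CPM was calculated from the deposited counts and library sums, whose size sets the precision of each value. Rounded counts were tested in R 4.3.3 with edgeR 4.0.16 (TMM, filterByExpr, robust quasi-likelihood, Benjamini-Hochberg adjustment over all genes), after the fit had been tested on simulated data. The simulated data gave every gene the same spread beyond counting error and held no outlying culture, so they do not cover that case. Alternatives were DESeq2 1.42.0, limma 3.58.1 on the log2 scale of RPKM plus 1 or 0.1, other scalings and filters, a replicate block, and each library left out. P-values set a difference against a spread between the cultures of the fit. The spread of each gene was moderated toward that of all genes, so it does not rest on the gene's own cultures alone. Fits without CG 1 leave its distance from CG 2 and CG 3 out of that spread. For 64411 the approximate standard error was 0.11 without CG 1 and 0.58 over all 6 libraries, with adjusted p of 9.63e-11 and 0.00190 (edgeR). Python 3.11.15 (pandas 2.3.3; numpy 2.4.6; scipy 1.17.1; matplotlib 3.10.9) served for descriptions and plots.

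Genes, lists and tests were chosen with earlier results of these data known. Genes named are those with the greatest ratio or level in CG 1, the largest changes without CG 1, neighbours, and those next to the fold limit. A few others (extremes of a group, genes beside a chosen gene) were named after their values were seen. Functional lists and promoter motifs had been planned and were not run, since descriptions of most genes and promoter sequences were not used here. RefSeq gene order was used for neighbours only, with no coordinates. The study names the Phytozome release of its transcripts, but the genome build behind the counts is not given in the sources used here.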

Additional observations from a re-analysis of the deposited data

How the results depend on the processing

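The number of genes chosen depended on the fold: 191 genes met a fold of 1.5 and 3 a fold of 3, while 35 were chosen with TMM scaling, 33 of them among the 38. With other libraries left out of the rule it was 38 to 51. Deviations from the group mean were hardly correlated between cultures of the same replicate number (-0.0343, 0.0377 and -0.0509). These correlations cannot settle whether the cultures were handled in pairs. With the replicate block 17 genes were higher and 4 lower in CG 2 and CG 3, and 16 higher over all 6 libraries. Leaving out 1 library gave 15 to 19 genes higher and 3 to 6 lower in CG 2 and CG 3, and 9 to 20 higher over all 6 libraries. With DESeq2, the other scalings and filters and limma, 16 to 20 were higher and 3 or 4 lower in CG 2 and CG 3, and DESeq2 called 19 higher over all 6 libraries. Of the 9 genes named for their change in CG 2 and CG 3, only 33218 lost its call under an alternative. The rule cannot be applied without CG 1. Genes near 20 CPM rest on fewer than 60 counts in CG 1.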

Other observations

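Applied to each other library in the place of CG 1, the same minimums and fold chose 1, 2 and 5 genes for AG 1, AG 2 and AG 3 and 0 for CG 2 and CG 3, against 38 for CG 1.

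The genes directly beside the 38, apart from the 38 themselves, numbered 65, of which 48 met both minimums. CG 1 was the highest library in 12 of the 48 (25.0%), against 23.2% of all genes that met them, and the median of CG 1 over the mean of CG 2 and CG 3 was 1.14, against 1.01. The highest ratios of CG 1 to the highest other library among the 48 were 1.78 in 38117, beside 19451, and 1.75 in 45728, beside 31923. Gene 38117 was at 92.4 CPM in CG 1, 51.4 and 50.8 CPM in CG 2 and CG 3 and 42.1 to 52.0 CPM in AG. Gene 45728 was at 940.4 CPM in CG 1, 507 and 539 CPM in CG 2 and CG 3 and 153 to 172 CPM in AG. Gene 54775, the ribosomal protein L5 gene that the study used as reference in qRT-PCR, lay beside 59691 and differed from it, at 138 CPM in CG 1, 268 and 302 CPM in CG 2 and CG 3 and 296 to 356 CPM in AG. Gene 13676, described by the study as a bidirectional amino acid transporter and lying beside 61311, was at 71.6 to 87.0 CPM in AG, 25.1 CPM in CG 1 and 9.30 and 8.38 CPM in CG 2 and CG 3. These genes were singled out after their values were seen.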
